A study of Mus musculus with 12 samples.

Results

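The proteins of the mitochondrial ribosome were followed, as messenger RNA, in adipose tissue of 3 groups of mice. These were mice labelled Bbs2-/- that received the compound Genz-667161, untreated mice labelled Bbs2-/-, and untreated mice labelled WT (wild type), with 4 libraries a group. All mice were of the C57BL/6 x 129/SvJ background, and their adipose tissue was collected at 6 months. Genz-667161, which inhibits glucosylceramide synthase, made up 0.033% of the feed by weight between 2 and 6 months. The product of Bbs2 is part of the BBSome, a complex that carries membrane proteins to and from primary cilia. No treated WT group is among the samples, and the labels give neither the Bbs2 allele, nor the fat depot, nor the sex. As no label says that each library came from a separate mouse, p-values measure the spread between these libraries, which may be technical in part. The libraries held 16317865 to 20224200 estimated counts.

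The genes described here are the mitochondrial ribosomal proteins, taken as the protein-coding rows of the count table whose symbol begins with Mrpl or Mrps followed by a digit. This rule gave 78 of 53431 rows, 49 Mrpl and 29 Mrps, spread over 17 chromosomes, and all 78 passed the filter on low counts. Mitochondria have ribosomes of their own, which make only the few proteins that mitochondrial DNA encodes, all of them parts of the respiratory chain and ATP synthase. The ribosomal RNAs come from mitochondrial DNA, while every ribosomal protein is encoded in the nucleus, made in the cytosol and imported. Mrpl proteins belong to the large subunit, which joins amino acids, and Mrps proteins to the small subunit, which reads the messenger RNA. The symbols are not a perfect guide, since the products of Mrps18a and Mrps30 sit in the large subunit and the product of Mrps36 is a component of the alpha-ketoglutarate dehydrogenase complex.

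The level of Bbs2 went against the labels. It was 61.5 ± 5.30 CPM (counts scaled to library size, SD, n = 4) in the libraries labelled treated Bbs2-/-, 61.9 ± 9.41 CPM in those labelled untreated Bbs2-/- and 12.5 ± 0.267 CPM in those labelled WT. Groups are therefore called by their labels throughout, and every direction below holds for libraries so labelled. The tissue was fat by its markers, as none of 15 adipocyte markers was at 0 in any library, but the makeup differed between groups. The summed adipocyte markers ranged from 59710 to 85945 CPM in treated, from 30600 to 36486 CPM in untreated and from 57156 to 87069 CPM in WT libraries. The 14 summed macrophage markers, none of which was at 0, ranged from 801 to 2033 CPM in treated, from 6871 to 9589 CPM in untreated and from 866 to 2852 CPM in WT libraries. In untreated against WT libraries 11 of 15 adipocyte markers fell and 13 of 14 macrophage markers rose. By the same test, given below, 19.7% of all genes tested fell and 19.6% rose. Of 7 T and NK cell markers 3 rose, of 5 brown fat markers 3 fell, and 0 of 6 endothelial markers passed. All 4 smooth muscle markers fell (median -2.09 on the log2 scale), and 4 of 6 fibroblast markers (median 0.76) and 4 of 4 B cell markers (median 2.15) rose. In bulk tissue, fewer cells of a type and less RNA per cell cannot be told apart, and the part of tissue makeup in the results below was not tested. Library WT 1 stood apart from the other WT libraries. Its 4 epididymis markers summed to 1083 CPM, against at most 0.698 CPM in each of the other 11 libraries, and its smooth muscle markers to 1602 CPM, against 464 to 557 CPM in the other WT libraries. WT 1 also had the lowest adipocyte marker sum of the WT libraries, 57156 CPM against 79342 to 87069 CPM in the others. Its macrophage marker sum was the highest of the WT libraries, 2852 CPM against 866 to 1417 CPM in the others. WT 1 was the lowest WT library for 71 of the 78 members, so counts are also given without it.

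Summed over the 49 Mrpl genes, the level was 1731, 1789, 1671 and 1957 CPM in the 4 treated libraries, 1475, 1387, 1423 and 1588 CPM in the 4 untreated libraries, and 1494, 2036, 2130 and 1963 CPM in the 4 WT libraries. The sums of the 29 Mrps genes were 945, 942, 916 and 1087 CPM in treated libraries, 794, 727, 746 and 841 CPM in untreated libraries, and 830, 1123, 1184 and 1099 CPM in WT libraries. Both sums put every treated library above every untreated one, and WT 1 among the untreated libraries. The ratio of the Mrps sum to the Mrpl sum stayed between 0.524 and 0.560 in the 12 libraries. The 4 lowest ratios were those of untreated libraries 2, 3 and 4 and treated library 2, and the highest was that of WT 4.

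**Figure D1:**
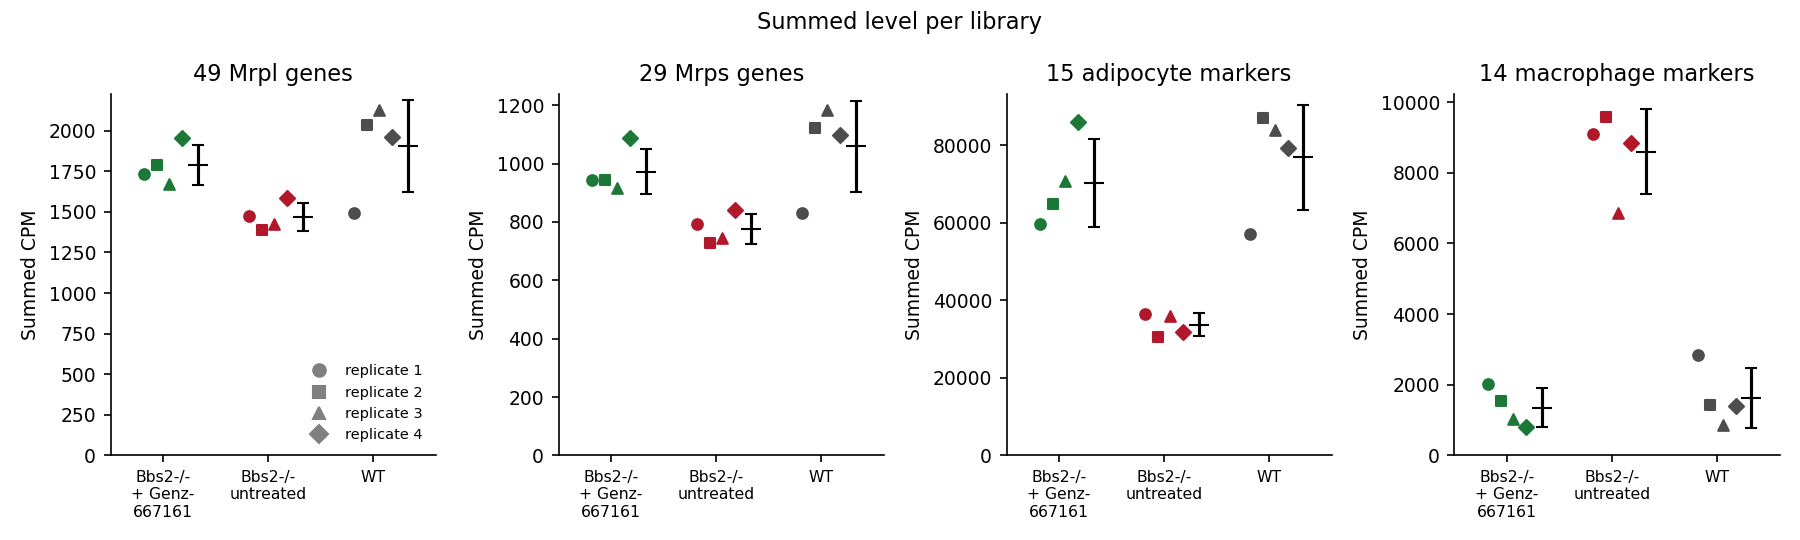
Summed CPM per library of the Mrpl genes, the Mrps genes, the adipocyte markers and the macrophage markers, with treated Bbs2-/-, untreated Bbs2-/- and WT libraries from left to right. Symbols are replicates and bars are the mean ± SD of 4 libraries; both subunit sums are lowest in untreated libraries, and WT 1 lies at 1494 CPM for Mrpl, below the other 3 WT libraries.

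Levels of different genes can be compared only per length, on the deposited log2 FPKM scale, where the median member was at 4.82 among Mrpl and 4.84 among Mrps genes (means of 12 libraries). The highest members on that scale were Mrps6 at 6.83, Mrps21 at 6.75, Mrpl20 at 6.71 and Mrpl42 at 6.64. The lowest were Mrpl23 at 1.35, Mrpl47 at 2.21, Mrpl19 at 2.23, Mrps35 at 2.76 and Mrps25 at 2.78. Mrpl23 had only 0 to 57 estimated counts a library, with fractional values in 11 of 12.

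The first comparison set untreated Bbs2-/- libraries against WT libraries. Of 49 Mrpl genes 25 fell and none rose, and of 29 Mrps genes 18 fell and none rose (edgeR quasi-likelihood test, Benjamini-Hochberg adjusted p under 0.05). Over all 15968 genes tested, 39.2% passed by the same rule, 19.7% as lower and 19.6% as higher. The median log2 fold change was -0.35 for Mrpl and -0.44 for Mrps genes, against -0.02 for all genes tested. All 29 Mrps genes and 46 of 49 Mrpl genes had a negative log2 fold change. The groups did not overlap, with every untreated library lower, for 13 Mrpl and 7 Mrps genes, where 17.2% of all genes tested did so, and with every untreated library higher for Mrpl19, where 19.5% did so. With Mrps18a and Mrps30 moved to the large subunit and Mrps36 left out, 27 of 51 large and 15 of 26 small subunit genes fell.

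These counts rested on few libraries, and the lower calls over all genes tested, 3139 in the reported fit, moved the same way. Without WT 1, 39 Mrpl genes fell and 1 rose, and 22 Mrps genes fell, where 3533 of 16305 genes tested fell and 3679 rose. Without WT 3, 16 Mrpl and 10 Mrps genes fell, where 2515 of 16328 genes tested did. Without untreated library 2, 14 Mrpl genes fell and 1 rose, and 9 Mrps genes fell. Of 16312 genes tested in that fit, 2175 fell and 2776 rose. Without untreated library 3, 15 Mrpl and 9 Mrps genes fell, where 2435 of 16313 genes tested did. WT 2 and WT 3 bear library names of a single type while all others bear merged ones, and without both, 3 Mrpl and 4 Mrps genes fell, with medians of -0.21 and -0.29, where 1693 of 16877 genes tested did so. When libraries were scaled by their totals alone, all genes tested had a median of 0.16, with 4460 higher and 2005 lower calls against 3124 and 3139 in the reported fit, and 8 Mrpl and 7 Mrps genes fell while 1 Mrpl gene rose. Relative to the median of all genes, the Mrpl and Mrps medians were then -0.32 and -0.41, against -0.33 and -0.42 in the reported fit.

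**Figure D2:**
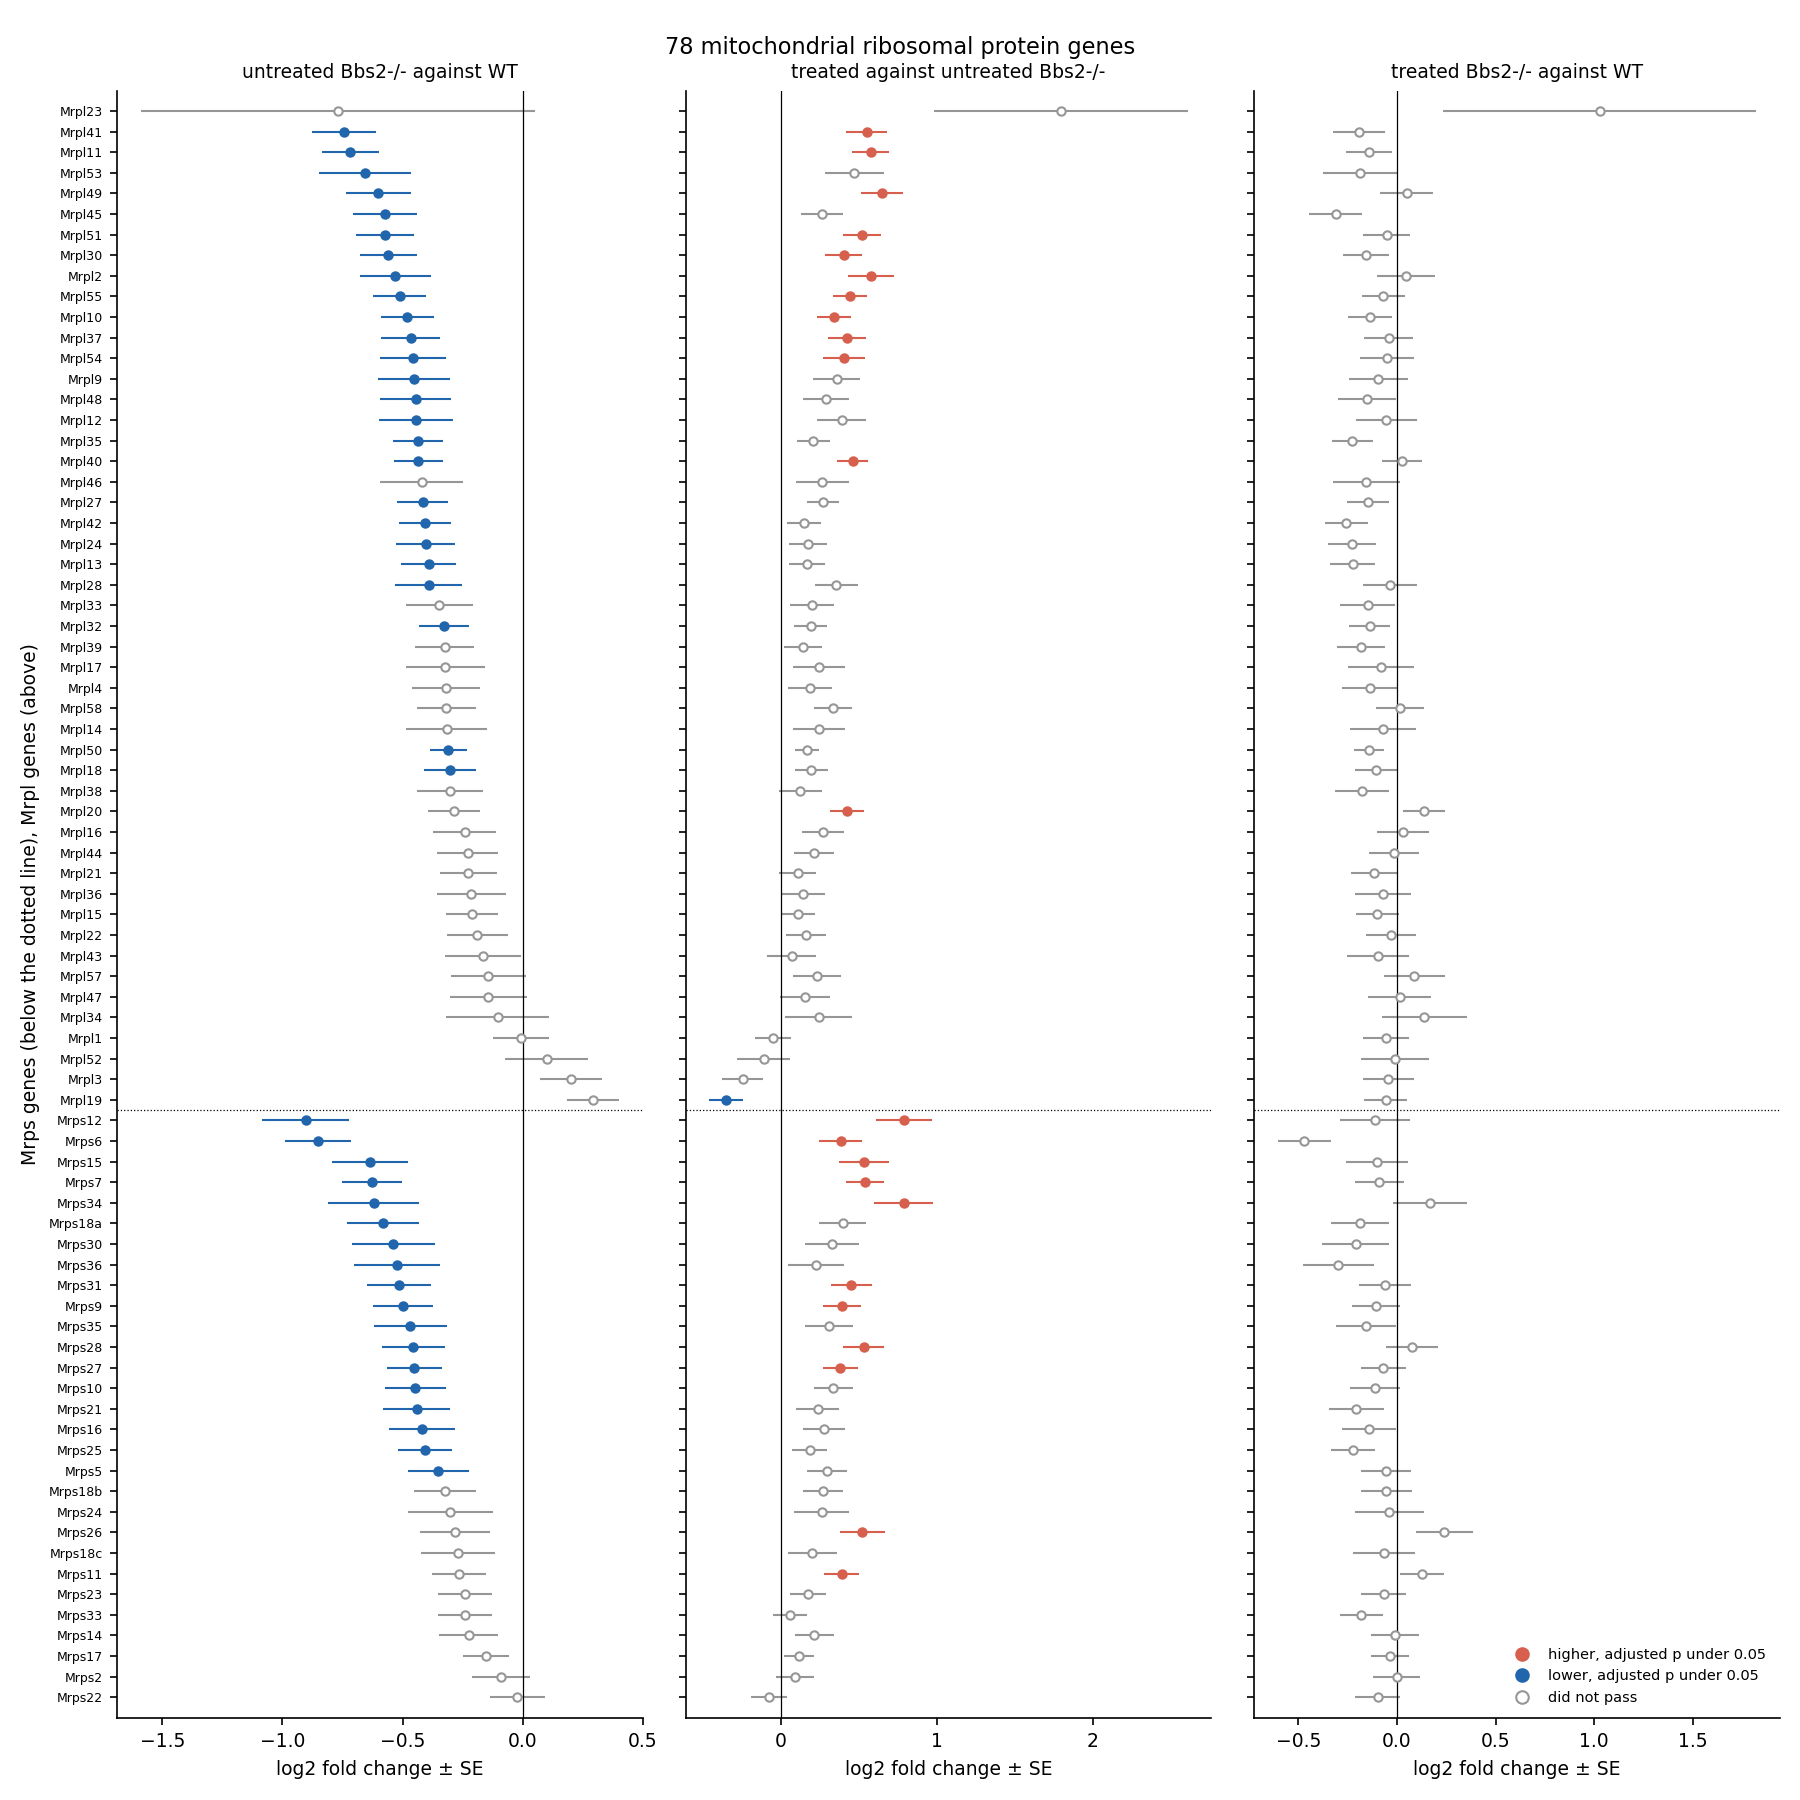
The log2 fold change ± SE (edgeR) of each of the 78 members, Mrpl above and Mrps below the dotted line, ordered by untreated against WT, for the 3 comparisons. Filled blue and red points passed the threshold as lower and higher; in untreated against WT the points lie left of 0 but for Mrpl52, Mrpl3 and Mrpl19, and no point is filled in treated against WT.

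Among small subunit genes, Mrps12 (ENSMUSG00000045948.8, GRCm38, chr7:28739641-28741820, minus strand) had the lowest log2 fold change. It is the mitochondrial counterpart of bacterial S12, which lines the decoding centre where codon and anticodon meet. Its level was 26.4, 25.8, 23.6 and 19.7 CPM in treated, 16.6, 12.7, 11 and 14.9 CPM in untreated, and 18.8, 22.9, 30.3 and 31.3 CPM in WT libraries. Every untreated library lay below every other library, treated or WT. The log2 fold change of untreated against WT was -0.90 (SE 0.18, edgeR adjusted p = 0.00227).

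Mrps6 (ENSMUSG00000039680.10, chr16:92058270-92112227, plus strand), a platform protein with a bacterial counterpart, had the smallest p of all 78 members in this comparison. It was at 79.4, 88.0, 89.0 and 89.8 CPM in treated, 64.1, 60.3, 65.1 and 76.0 CPM in untreated, and 86.9, 144, 126 and 123 CPM in WT libraries. The 3 groups were ordered untreated, treated, WT, and WT 1 alone among WT libraries fell within the treated range. Untreated against WT gave a log2 fold change of -0.85 (SE 0.14, edgeR adjusted p = 0.000629). Mrps6 shares 464 exonic bases on the same strand with Slc5a3, a myo-inositol transporter gene, and another annotated gene, and its counts were fractional in all 12 libraries, so reads of these genes cannot be fully told apart.

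Further small subunit genes that fell were Mrps7 and Mrps9 of the head, Mrps15 of the platform, and Mrps34, Mrps27 and Mrps31, which have no bacterial counterpart. Mrps7 (ENSMUSG00000046756.10, chr11:115603925-115608036, plus strand) was at 63.9, 65.0, 58.4 and 71.2 CPM in treated, 42.8, 42.5, 44.0 and 48.6 CPM in untreated, and 51.7, 74.8, 80.7 and 67.8 CPM in WT libraries. No untreated library reached the level of any treated or WT library, and the log2 fold change of untreated against WT was -0.63 (SE 0.12, edgeR adjusted p = 0.00216). The log2 fold changes were -0.64 (SE 0.16) for Mrps15, -0.50 (SE 0.12) for Mrps9 and -0.62 (SE 0.19) for Mrps34. Of the 2064 exonic bases of Mrps34, 763 are shared with Nme3 on the same strand and 1309 overlap Mapk8ip3 on the opposite strand. The strand setting of the counting is not given, and the part of reads from these genes was not tested. Mrps34 no longer passed without WT 3, WT 4, or untreated library 2 or 3. At the other end, Mrps22 at -0.02 (SE 0.11) and Mrps2 at -0.09 (SE 0.12) were nearest to 0 and did not pass. Of the 3 Mrps18 paralogs, which replaced a single bacterial protein, Mrps18a fell by 0.58 on the log2 scale (SE 0.15), while Mrps18b at -0.32 and Mrps18c at -0.27 did not pass; counts between such paralogs may be split by the authors' counting.

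Among large subunit genes, Mrpl11 (ENSMUSG00000024902.4, chr19:4962147-4966999, plus strand) had the smallest p. It is the counterpart of bacterial L11, at the base of the stalk that brings in elongation factors. It was at 43.6, 44.5, 41.0 and 51.7 CPM in treated, 29.8, 31.1, 27.7 and 32.6 CPM in untreated, and 38.6, 55.3, 54.1 and 51.3 CPM in WT libraries. The highest untreated library was below the lowest library of both other groups, and the log2 fold change of untreated against WT was -0.72 (SE 0.12, edgeR adjusted p = 0.000775). Mrpl10 and Mrpl12, the proteins that form the stalk itself, also fell, by 0.48 (SE 0.11) and 0.44 (SE 0.15) on the log2 scale, so that all 3 stalk genes passed. Mrpl12 no longer passed when WT 2, WT 3, WT 4, untreated library 1, 2 or 3, or treated library 1 was left out.

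Mrpl41 (ENSMUSG00000036850.4, chr2:24974117-24975098, minus strand), a large subunit protein with no bacterial counterpart, was at 36.3, 35.7, 33.7 and 39.4 CPM in treated, 25.2, 22.6, 25.7 and 25.6 CPM in untreated, and 29.4, 46.0, 47.0 and 43.5 CPM in WT libraries. Untreated libraries were again below all others, and their log2 fold change against WT was -0.74 (SE 0.13, edgeR adjusted p = 0.00116). Mrpl49 and Mrpl51, also without bacterial counterparts, fell by 0.60 (SE 0.13) and 0.57 (SE 0.12), Mrpl30, a counterpart of bacterial L30, by 0.56 (SE 0.12), and Mrpl55 of the central protuberance by 0.51 (SE 0.11) on the log2 scale. Mrpl23 had the lowest log2 fold change of the subunit, -0.77 (SE 0.82), and did not pass. Mrpl45, which docks the ribosome to the inner membrane at the tunnel exit, fell by 0.57 (SE 0.13) and Mrpl42 by 0.41 (SE 0.11) on the log2 scale.

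By place in the ribosome, 4 of 6 genes of the central protuberance, 2 of 4 around the peptidyl transferase centre and 2 of 6 around the exit tunnel fell, with median log2 fold changes of -0.43, -0.33 and -0.36. In the small subunit, 3 of 5 head genes, 3 of 5 platform genes and 3 of 4 body genes fell, with medians of -0.45, -0.44 and -0.39. No group of genes by place held a called gene of the other direction. With 3 to 6 genes a group, these counts are only a description, beside the 19.7% of all genes tested that fell. Of 48 members with a bacterial counterpart 25 fell, and of 29 without one 17 fell, with median log2 fold changes of -0.35 and -0.42.

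Mrpl19, Mrpl3 and Mrpl52 were the exceptions in sign. Mrpl19 (ENSMUSG00000030045.10, chr6:81957851-81965958, minus strand), the counterpart of a bacterial protein at the interface of the subunits, was at 15.8, 14.8, 15.9 and 15.5 CPM in treated, 20.4, 18.5, 20.6 and 19.5 CPM in untreated, and 17.5, 18.2, 12.8 and 15.9 CPM in WT libraries. All untreated libraries were above all others, and the log2 fold change of untreated against WT was 0.29 (SE 0.11, edgeR adjusted p = 0.0507). Mrpl19 overlaps 1962 exonic bases of Gcfc2 on the opposite strand. Exons of 28 members, Mrpl19 and Mrps34 among them, overlap a gene on the opposite strand. The strand setting of the counting is not given in the sources used here. In this comparison Mrpl19 did pass, as higher, in DESeq2, in limma-voom, with libraries scaled by their totals alone, and without WT 1, WT 2 or untreated library 2. Mrpl3, a protein close to the peptidyl transferase centre, had 0.20 (SE 0.13) and Mrpl52 0.10 (SE 0.17), and neither passed. Mrpl3 did pass, as higher, without WT 4, at 0.34, and without the 4 libraries that held counts of Foxj1, a gene of ciliated epithelium, at 0.40.

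**Figure D3:**
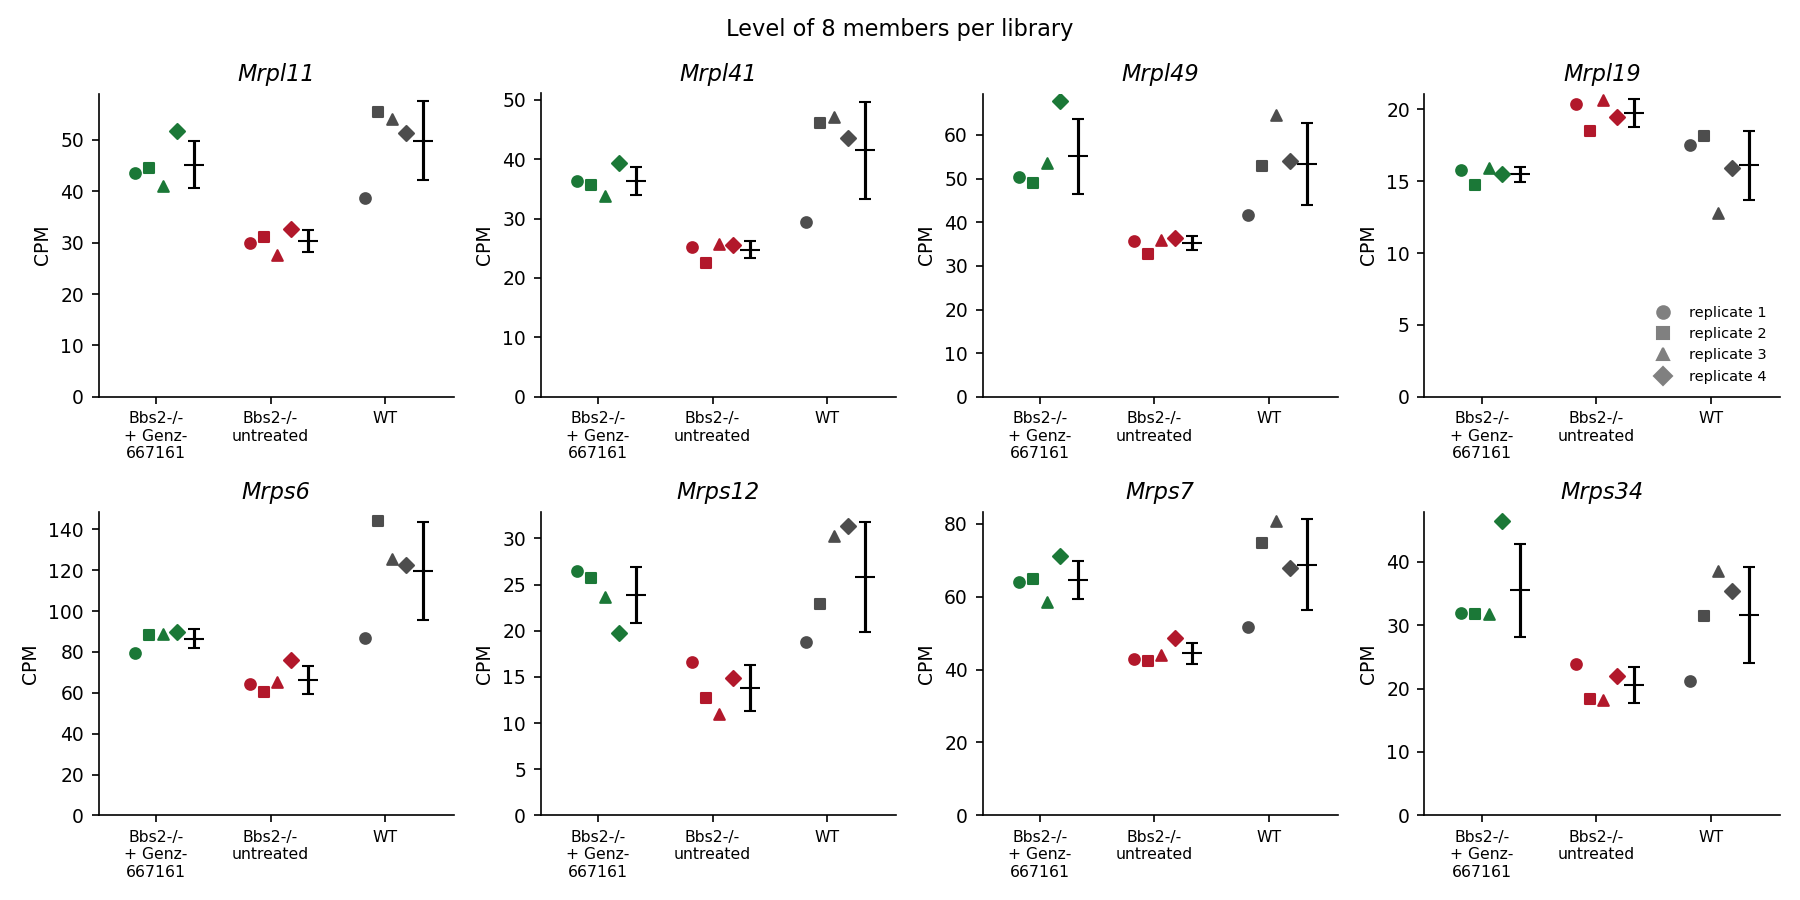
CPM of 8 members in each library, with treated Bbs2-/-, untreated Bbs2-/- and WT from left to right. Symbols are replicates and bars the mean ± SD of 4 libraries; untreated libraries are lowest for Mrpl11, Mrpl41, Mrpl49, Mrps6, Mrps12 and Mrps7, overlap WT 1 for Mrps34, and are highest for Mrpl19.

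The second comparison set treated against untreated Bbs2-/- libraries. It shares the untreated libraries with the first, so that an untreated level that is low by chance would move both comparisons in opposite directions. Of 49 Mrpl genes 12 rose and 1 fell, and of 29 Mrps genes 11 rose and none fell, where 37.2% of all genes tested passed, 18.5% as higher and 18.8% as lower. The median log2 fold change was 0.24 for Mrpl and 0.31 for Mrps genes, against 0.03 for all genes tested. The groups did not overlap, with treated libraries higher, for 20 Mrpl and 12 Mrps genes, where 19.0% of all genes tested did so, and with treated libraries lower for Mrpl19, where 20.7% did so. In the same comparison 12 of 15 adipocyte markers rose, 13 of 14 macrophage markers fell and 5 of 6 fibroblast markers fell. Of 6 endothelial markers 3 rose, of 4 smooth muscle markers 1 rose, and of 4 B cell markers 2 fell. Of 5 brown fat markers 1 rose and 1 fell, and 0 of 7 T and NK cell markers passed.

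When WT 1, which is in neither group but adds to the estimate of spread, was left out, 20 Mrpl genes rose and 1 fell. In that fit 3263 of 16305 genes tested rose and 3348 fell. The Mrps count was 5 without untreated library 2, 7 without untreated library 3 and 7 without treated library 4. Over all genes tested, 2039, 2283 and 2383 rose in those fits, against 2947 in the reported fit. Treated library 4 was the highest treated library for 54 of 78 members and also had the highest treated sum of adipocyte markers. With libraries scaled by their totals alone, all genes tested had a median of -0.10, with 2095 higher and 3802 lower calls against 2947 and 3000, and 9 Mrpl and 7 Mrps genes rose.

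The small subunit genes that rose most were Mrps12, with a log2 fold change of treated against untreated of 0.79 (SE 0.18, edgeR adjusted p = 0.00500), and Mrps34, with 0.79 (SE 0.19, edgeR adjusted p = 0.00667). Mrps34, which in human cells is needed for a stable small subunit, was at 31.9, 31.8, 31.8 and 46.4 CPM in treated, 23.9, 18.3, 18.2 and 21.9 CPM in untreated, and 21.1, 31.4, 38.5 and 35.5 CPM in WT libraries. Treated library 4 stood above the other treated libraries, and all 4 were above all untreated ones. The exon overlaps of Mrps34 with Nme3 and Mapk8ip3, given above, apply to this comparison too. Mrps7 rose by a log2 fold change of 0.54 (SE 0.12), Mrps28 by 0.53 (SE 0.13) and Mrps26 by 0.52 (SE 0.14). Mrps26 had fractional counts in all 12 libraries, and without untreated library 2 or 3 it no longer passed. Mrps33, with 0.06 (SE 0.11), and Mrps22, with -0.08 (SE 0.11), were lowest and did not pass.

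Of large subunit genes, Mrpl49 (ENSMUSG00000007338.9, chr19:6053622-6057785, minus strand) had the largest log2 fold change among those that passed. It was at 50.5, 48.9, 53.5 and 67.7 CPM in treated, 35.6, 32.8, 35.8 and 36.4 CPM in untreated, and 41.6, 53.0, 64.6 and 54.1 CPM in WT libraries. Untreated libraries lay within a narrow band below all others, and the log2 fold change of treated against untreated was 0.65 (SE 0.13, edgeR adjusted p = 0.00292). Mrpl11 rose by a log2 fold change of 0.58 (SE 0.12, edgeR adjusted p = 0.00279), Mrpl41 by 0.55 (SE 0.13), Mrpl51 by 0.52 (SE 0.12) and Mrpl40, of the central protuberance, by 0.46 (SE 0.10). Mrpl20, whose bacterial counterpart binds ribosomal RNA early in assembly, rose by 0.43 (SE 0.11). Mrpl23 had 1.80 (SE 0.81) and did not pass.

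The member that fell was Mrpl19, with a log2 fold change of treated against untreated of -0.35 (SE 0.11, edgeR adjusted p = 0.0252). It no longer passed without untreated library 1, without treated library 1, 2 or 4, without a filter on low counts, or on the log2 FPKM values. Mrpl3 had -0.24 (SE 0.13) and did not pass.

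The third comparison set treated Bbs2-/- libraries against WT libraries. None of the 78 members passed, where 0.257% of all genes tested did, 0.175% as higher and 0.0814% as lower. For no member did the groups separate, where 2.68% of all genes tested did so with treated libraries higher and 2.21% with treated libraries lower. At an unadjusted p under 0.05, 3 Mrpl genes and 1 Mrps gene differed in edgeR, where 1697 of 15968 genes tested did. DESeq2, limma-voom and limma-trend on the log2 FPKM values called no member either. The median log2 fold change was -0.08 for Mrpl and -0.09 for Mrps genes, against -0.02 for all genes tested, with a median SE of 0.13 in both subunits. A p that misses the threshold does not show that levels were equal, and the 95% interval of the log2 fold change was -0.40 to 0.12 for Mrpl11, -0.50 to 0.27 for Mrps12 and -0.24 to 0.34 for Mrpl49.

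The member with the smallest p was Mrps6, with a log2 fold change of -0.47 (95% interval -0.76 to -0.18, edgeR adjusted p = 0.226). When WT 1 was left out, Mrps6 passed, as lower, and no other member did. Mrpl45 and Mrpl42 had log2 fold changes of -0.31 (SE 0.13) and -0.26 (SE 0.11), and Mrps26 the highest of the small subunit, 0.24 (SE 0.14); none of them passed. The Mrpl median was -0.19 without WT 1 and 0.07 without WT 2 and WT 3.

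Other parts of the mitochondrial translation machinery were counted from lists of genes. These counts stand beside the shares of all genes tested, 19.7% lower and 19.6% higher in untreated against WT and 18.5% higher and 18.8% lower in treated against untreated libraries. Mitoribosomal proteins with other names are Dap3, a GTP-binding protein of the small subunit head, Ptcd3, Chchd1, Aurkaip1 and Gadd45gip1. In untreated against WT libraries Dap3 fell by 0.41 (SE 0.11), Aurkaip1 by 0.44 (SE 0.13) and Ptcd3 by 0.26 (SE 0.09) on the log2 scale, while Chchd1 at -0.22 and Gadd45gip1 at -0.11 did not pass. The calls of Aurkaip1 and Ptcd3 were lost when any of WT 2, WT 3 or untreated libraries 1, 2 and 3 was left out, and that of Ptcd3 also without untreated library 4 or treated library 2 or 3. When treated were set against untreated libraries, Dap3 rose by a log2 fold change of 0.32 (SE 0.11), while no call was made for the other 4. This call was lost without untreated library 1, 2 or 3 or treated library 4.

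Translation factors work on the assembled ribosome, and 6 of 13 tested fell in untreated against WT libraries while none rose. Mrrf, the ribosome recycling factor, fell by 0.50 (SE 0.12), Tsfm, which recharges elongation factor Tu, by 0.49 (SE 0.13), and Gfm1, the translocation factor, by 0.33 (SE 0.10) on the log2 scale. Tsfm no longer passed without untreated library 2, nor Gfm1 without WT 2 or untreated library 2 or 4. Of the same 13, in treated against untreated libraries, 5 rose and none fell, among them Tsfm at 0.52 (SE 0.13), which passed with any single library left out. Mtfmt, which formylates the initiator methionine, had 0.51 (SE 0.17) and lost its call without untreated library 1, 3 or 4 or treated library 1, 3 or 4.

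Of 26 assembly factors, 7 fell and none rose in untreated against WT libraries, and 6 rose and 1 fell in treated against untreated libraries. The list thus had 26.9% of its genes lower in the first and 23.1% higher in the second comparison, near the 19.7% and 18.5% of all genes tested. Mtg1, a GTPase that helps to mature the large subunit, was at 22.8, 21.6, 21.4 and 29.1 CPM in treated, 15.4, 12.5, 16.8 and 14.7 CPM in untreated, and 22.8, 26.9, 31.1 and 27.0 CPM in WT libraries. Its level was lowest in all 4 untreated libraries, with log2 fold changes of -0.86 (SE 0.13) for untreated against WT and 0.68 (SE 0.13) for treated against untreated. Mpv17l2, another large subunit assembly factor, had -0.73 (SE 0.13) and 0.80 (SE 0.13), both past the threshold. The factor that fell in treated against untreated libraries was Rpusd4, a pseudouridine synthase of the large ribosomal RNA, with -0.52 (SE 0.11).

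Of 22 mitochondrial aminoacyl-tRNA synthetase and amidotransferase genes, 8 fell and none rose in untreated against WT libraries, and 6 rose and none fell in treated against untreated libraries. Gatb, a subunit of the amidotransferase that makes glutaminyl-tRNA, was at 30.8, 39.9, 37.1 and 31.8 CPM in treated, 15.9, 16.5, 15.1 and 14.9 CPM in untreated, and 27.9, 30.2, 43.6 and 30.1 CPM in WT libraries. Untreated libraries were all below the others, and the log2 fold changes were -1.08 (SE 0.14) for untreated against WT and 1.16 (SE 0.14) for treated against untreated. Fars2, Iars2 and Nars2, the synthetases for phenylalanine, isoleucine and asparagine, had -0.66, -0.56 and -0.59 for untreated against WT, all past the threshold.

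Of 17 regulators of mitochondrial transcription and biogenesis, 2 fell and 3 rose in untreated against WT libraries, shares of 11.8% and 17.6% that do not exceed the 19.7% and 19.6% of all genes tested. Ppargc1a, a coactivator that drives mitochondrial biogenesis, fell by 1.23 on the log2 scale (SE 0.35), and Tfb2m, a factor of mitochondrial transcription initiation, by 0.44 (SE 0.10). Pprc1, a relative of Ppargc1a, rose by a log2 fold change of 0.86 (SE 0.11), Myc by 0.88 (SE 0.16) and Nrf1, a transcription factor of many mitochondrial genes, by 0.27 (SE 0.09). The call of Nrf1 was lost without WT 2, WT 4 or untreated library 1, 2 or 4. Treated against untreated, Ppargc1a rose by 1.62 (SE 0.35) and Tfb2m by 0.42 (SE 0.10), while Pprc1 fell by 0.49 (SE 0.11) and Myc by 0.85 (SE 0.16).

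The members were also set beside the nuclear-encoded subunits of the respiratory chain and the proteins of the cytosolic ribosome. Of 81 tested nuclear respiratory chain subunits, 68 fell and 1 rose in untreated against WT libraries, with a median log2 fold change of -0.58. Of 78 tested cytosolic ribosomal protein genes, 1 fell and 5 rose, with a median of 0.11, where 19.7% of all genes tested fell and 19.6% rose. In treated against untreated libraries 59 respiratory chain genes rose and 1 fell, with a median of 0.48, and 16 cytosolic ribosomal genes, or 20.5%, fell and none rose, with a median of -0.19, where 18.8% of all genes tested fell. In both comparisons the Mrpl and Mrps medians lay between those of the other lists, while in treated against WT they were -0.08 and -0.09, beside -0.09 for respiratory chain and -0.10 for cytosolic ribosomal genes. The differences between these lists were not tested.

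Transcripts of mitochondrial DNA were also lower in untreated libraries. Of 13 mitochondrially encoded protein genes 10 fell in untreated against WT libraries and 8 rose in treated against untreated libraries, with none in the other direction. Over all genes tested, 19.7% fell in the former and 18.5% rose in the latter comparison. Every untreated library was below every WT library for 6 of the 13, where 17.2% of all genes tested were so. The 2 ribosomal RNAs around which the members assemble, mt-Rnr1 and mt-Rnr2, fell by 1.02 (SE 0.26) and 0.94 (SE 0.27) on the log2 scale in untreated against WT and rose by 0.78 (SE 0.25) and 0.83 (SE 0.27) in treated against untreated libraries. For mt-Rnr2 the first call was lost without WT 2 or untreated library 2 or 3. For both RNAs the second was lost without untreated library 2, 3 or 4 or treated library 2, and for mt-Rnr2 also without untreated library 1. The libraries were selected for polyadenylated RNA, so the levels of ribosomal RNA are those of the part that was captured.

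**Figure D4:**
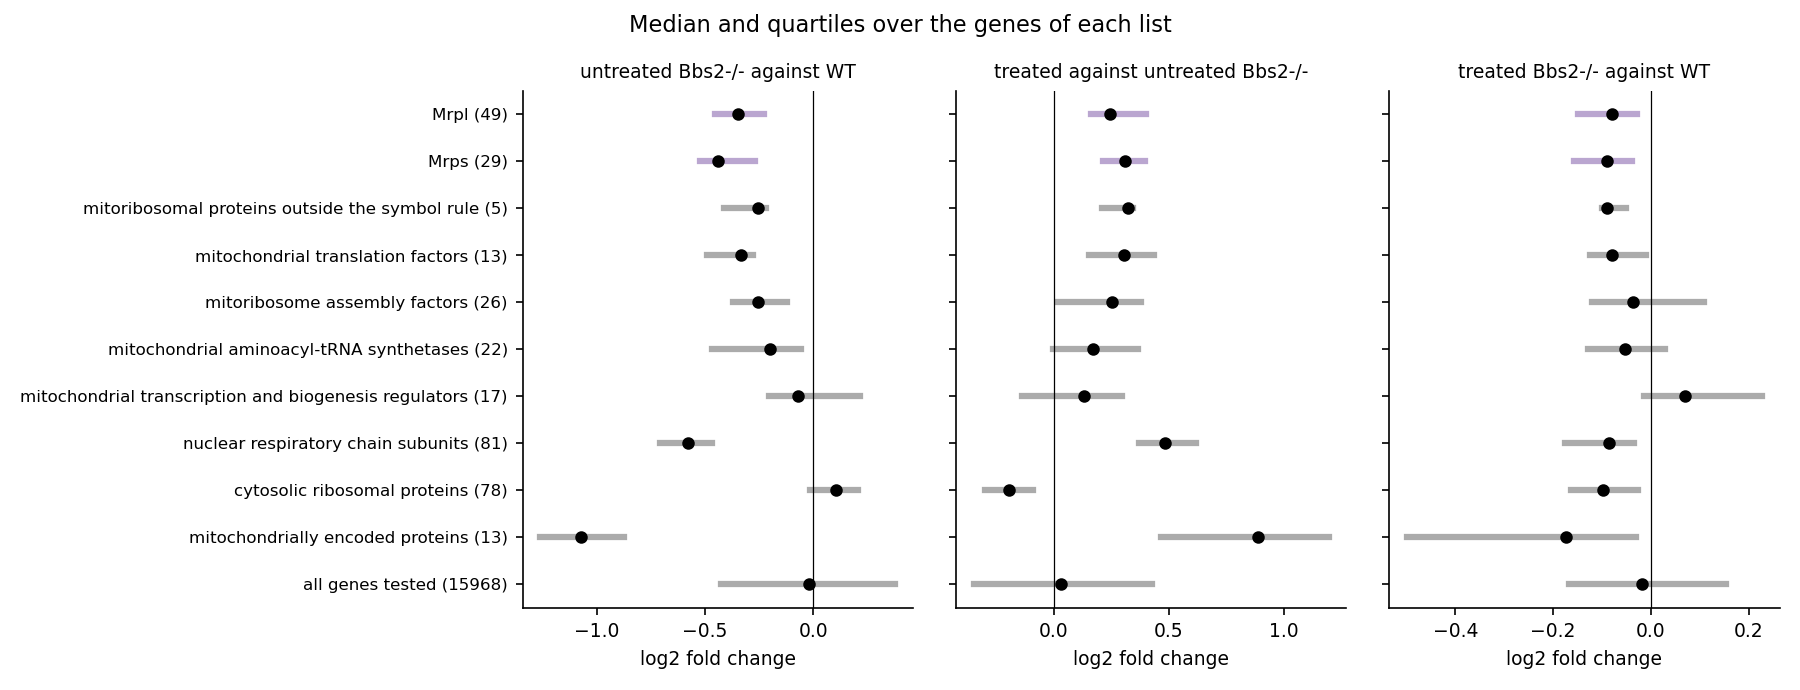
Median (point) and quartiles (line) of the edgeR log2 fold change over the tested genes of each list, with the number tested in brackets, for the 3 comparisons. In untreated against WT the Mrpl and Mrps medians, -0.35 and -0.44, lie between nuclear respiratory chain subunits at -0.58 and cytosolic ribosomal proteins at 0.11.

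Promoters of the members were examined because so many members moved one way. RefSeq entries on GRCm38.p6, from 250 bases before to 50 after the start, matched 69 of 78 members and 11061 tested protein-coding genes. Letters of 4 motifs were searched on both strands: CCGGAAG for the ETS family, to which the mitochondrial gene regulator GABP belongs, AAGATGGCG for YY1, the NRF1 palindrome, and the same palindrome with 1 base of any letter. ETS letters were in 37.7% of members and 18.6% of tested protein-coding genes, and YY1 letters in 11.6% and 3.24%. The NRF1 palindrome was in 4.35% of members and 2.16% of tested protein-coding genes, and its looser form, which includes it, in 18.8% and 10.6%. ETS and YY1 letters occurred together in Mrps18a and Mrps27 and shared no bases. Of 26 members with ETS letters 10 fell in untreated against WT libraries, with a median of -0.31 on the log2 scale, and of 43 without them 28 fell, with a median of -0.44. A match is a run of letters and not a binding site.

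The bases before the RefSeq start are shown for the member of each subunit with the smallest p whose stretch before the start is free of annotated exons for at least 30 bases, and for the member with the smallest p whose stretch holds ETS letters, which are in capitals. Mrps6, Mrpl11 and Mrps7 were passed over, as annotated exons lie closer to their RefSeq starts. Sequences run 5′ to 3′ on the strand of the gene.
Mrpl41, GRCm38.p6, chr2:24975099-24975198, minus strand: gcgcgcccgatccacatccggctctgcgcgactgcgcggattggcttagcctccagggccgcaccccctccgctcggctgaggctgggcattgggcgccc
Mrps12, GRCm38.p6, chr7:28741822-28741921, minus strand: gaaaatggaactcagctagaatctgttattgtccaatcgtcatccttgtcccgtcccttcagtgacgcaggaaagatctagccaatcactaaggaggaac
Mrps27, GRCm38.p6, chr13:99344706-99344785, plus strand: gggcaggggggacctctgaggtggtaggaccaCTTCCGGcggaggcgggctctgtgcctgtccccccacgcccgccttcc
The stretches of Mrpl41 and Mrps12 hold none of the motifs searched, though Mrps12 is among the 26 members with ETS letters in the longer window, and that of Mrps12 has 46.0% G and C bases, against 74.0% in Mrpl41 and 73.8% in Mrps27. The ETS letters of Mrps27 begin 48 bases before the start, on the opposite strand. Mrps27, an RNA-binding protein of the small subunit, fell by 0.45 on the log2 scale (SE 0.11, edgeR adjusted p = 0.00843) in untreated against WT libraries.

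A head-to-head arrangement in the genome was more frequent among the members than among all tested protein-coding genes, though most members lacked it. Of 78 members 33, or 42.3%, had a protein-coding gene on the other strand whose start lay within 1000 bases, against 14.9% of 14190 tested protein-coding genes. For 28 of them the partner was tested and was no member, though in some pairs exons overlapped on opposite strands. In untreated against WT libraries 19 of these 28 members fell and none rose, at a median log2 fold change of -0.40, and of their 28 partners 2 fell and 5 rose, with a median of 0.05, where 19.7% of all genes tested fell and 19.6% rose. Here 24 of 28 members had the lower log2 fold change of the pair. In treated against untreated libraries 12 of 28 members rose, with a median of 0.28, while 3 partners rose and 6 fell, with a median of -0.06, where 18.5% of all genes tested rose and 18.8% fell.

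Mrps7 and Gga3, a Golgi sorting adaptor, start 126 bases apart and had log2 fold changes of -0.63 (SE 0.12) and 0.71 (SE 0.13) in untreated against WT libraries, both past the threshold. Mrpl2, near the peptidyl transferase centre, and Klc4, a kinesin light chain, start 207 bases apart and had -0.53 (SE 0.15) and 0.59 (SE 0.14), also both past it, though Mrpl2 no longer passed without untreated library 2 or 3. The partners that fell were Ndufs6, beside Mrpl36, and Ndufb5, beside Mrpl47, both subunits of respiratory complex I, with -0.54 (SE 0.14) and -0.53 (SE 0.11). Mrpl36 at -0.21 and Mrpl47 at -0.14 did not pass, but Mrpl36 did, as lower, without WT 1. Exons of Mrps7 overlap Gga3 and Mif4gd on the opposite strand by 246 bases, and those of Mrpl36 overlap Ndufs6 by 30 bases. Exons of Mrpl47 overlap Actl6a and Ndufb5 by 1068 bases, while Mrpl2 has no such overlap. As the strand setting is not given, the part of reads from overlapping exons was not tested. The pairs in this paragraph were named after their values were seen.

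**Figure D5:**
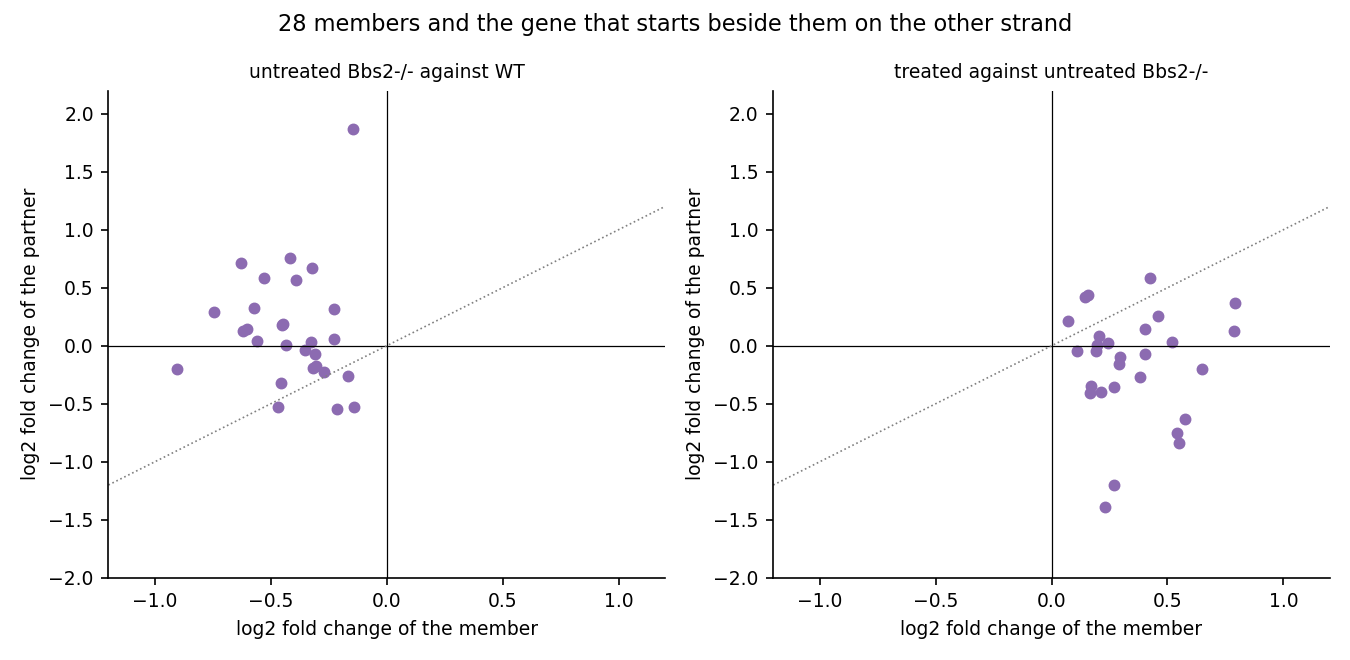
The log2 fold change of each of 28 members (horizontal) and of the gene that starts within 1000 bases on the other strand (vertical), for untreated against WT and treated against untreated Bbs2-/-. The dotted line marks equal values; 24 of 28 points lie above it on the left and 4 of 28 on the right.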

How the data were processed

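Per the labels' protocols, polyadenylated RNA was made into libraries with a TruSeq Stranded mRNA kit. Estimated counts per gene were deposited by the authors, and 92.96% to 94.17% of values were whole within 1e-06. The submitters' processing notes name mm10. Which aligner, counter and strand setting were used is not given in these sources. The authors also deposited log2 values of FPKM, which fit log2(FPKM + 1) and share an upper quartile of 3.96 in every library.

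Counts were rounded and tested in R 4.3.3 with edgeR 4.0.16 (robust quasi-likelihood, 12 libraries, group as the only term, TMM scaling, filterByExpr). P-values were adjusted by Benjamini-Hochberg over 15968 genes, with a threshold of 0.05, and the script was tested on simulated data. CPM are per TMM-scaled library. Alternatives used DESeq2 1.42.0, limma 3.58.1, other scalings and filters, a replicate block, and left-out libraries. Of 53431 rows, 52207 matched GENCODE M21 (GRCm38), which gave positions and exons. Columns with no sample numbered 0. Named genes are, per subunit and comparison, the 5 called members with the smallest p and the 2 highest and 2 lowest log2 fold changes, members called against the majority, the extremes of log2 FPKM, the Mrps18 paralogs, and up to 4 genes per pathway list with the smallest p. Further stalk, partner and promoter genes were named after their values were seen. Members, lists and tests were chosen with earlier results of these data known.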

Additional observations from a re-analysis of the deposited data

Results flagged for a closer look

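In 12 of 123 groups of 4 libraries, over 39 named members and 2 summed levels, the highest or lowest library stood away from the other 3 by more of the range than Dixon's 95% limit for 4 values allows. Chance gives about 1 in 20 for independent groups drawn from a normal distribution. These groups share the same libraries, and the members were named largely by small p or extreme log2 fold change. The count of 12 can therefore not be read as an excess over chance. Treated libraries gave 4 of these. Mrps6 was lowest in treated library 1 at 79.4 CPM, against 88.0 to 89.8 CPM in the others. In treated library 4, Mrps34 was highest at 46.4 CPM, against 31.8 to 31.9 CPM, Mrps25 was highest at 33.6 CPM, against 32.2 to 32.5 CPM, and Mrpl2 was highest at 48.5 CPM, against 34.2 to 36.4 CPM. Among untreated Bbs2-/- libraries, library 2 had the lowest Mrpl41 at 22.6 CPM, against 25.2 to 25.7 CPM, and the highest Mrpl42 at 54.7 CPM, against 52.1 to 52.5 CPM. Mrps2 was highest in untreated library 1 at 33.6 CPM, against 29.0 to 29.5 CPM, and Mrps21 in untreated library 4 at 46.5 CPM, against 39.2 to 40.0 CPM. Mrpl36 was also highest in untreated library 4, at 24.5 CPM, against 17.7 to 18.9 CPM. In WT 1, the library with epididymis markers and the lowest adipocyte marker sum of the WT libraries, 3 members were lowest. Mrpl45 was at 30.4 CPM there, against 37.0 to 37.4 CPM in the other WT libraries, Mrps9 at 26.6 CPM, against 38.6 to 39.8 CPM, and Mrps2 at 25.8 CPM, against 33.8 to 34.9 CPM.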

How the results depend on the processing

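For the named genes, no value that passed a test changed sign under an alternative. Other genes were not checked one by one for this. In untreated Bbs2-/- against WT, scaling by library totals alone left 9 called Mrpl genes, 8 lower and 1 higher (median -0.15), and 7 Mrps genes (median -0.25), and leaving out WT 2 and WT 3 left 3 (median -0.21) and 4 (median -0.29). Leaving out the 4 libraries with Foxj1 counts, a gene of ciliated epithelium, gave an Mrpl median of -0.51. In treated against untreated Bbs2-/-, library totals alone gave 7 Mrps genes and limma-trend on log2 FPKM 20 Mrpl genes. In treated against WT, the medians changed sign without WT 2 and WT 3, to 0.070 for Mrpl and 0.055 for Mrps genes, against -0.08 and -0.09 in the reported fit. The cause was not tested. With single libraries left out, 15 to 40 Mrpl (medians -0.46 to -0.29) and 9 to 22 Mrps genes (medians -0.52 to -0.36) passed in untreated against WT. In treated against untreated, 9 to 21 Mrpl (medians 0.19 to 0.29) and 5 to 13 Mrps genes (medians 0.21 to 0.37) passed. Over all genes tested, 4951 to 7212 passed in the former and 4614 to 6611 in the latter comparison. In treated against WT, 0 Mrpl (medians -0.19 to -0.05) and 0 to 1 Mrps genes (medians -0.18 to -0.04) passed. Over all alternatives, called named members kept their call in 526 values and lost it in 72 for untreated against WT, and kept it in 438 and lost it in 45 for treated against untreated. Named members were chosen largely by small p or extreme log2 fold change in these data, so these values do not measure how stable all calls were. Of the 25 Mrpl and 18 Mrps calls for untreated against WT, 3 and 4 were kept without WT 2 and WT 3. With library totals alone, 8 and 7 were kept. Mrpl23 had 0 to 57 counts a library.

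No label says that the replicate numbers pair the samples. Deviations of same-numbered libraries correlated at -0.0214 to 0.0164 between untreated and WT, 0.0999 to 0.308 between treated and untreated, and -0.149 to 0.278 between treated and WT libraries. The best-matching untreated library had the same number for treated libraries 1, 3 and 4. Among WT libraries this held for treated library 2 only, and for no untreated library. Whether treated and untreated libraries were handled in pairs is not known. With the replicate number as a block, 23 Mrpl and 17 Mrps genes passed in untreated against WT, 15 and 11 in treated against untreated, and 0 and 0 in treated against WT.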
